A study of Homo sapiens with 18 samples.

Results

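The 10 transcripts described here, DUSP4, DUSP5, DUSP6, SPRY2, SPRY4, SPRED1, SPRED2, PHLDA1, ETV4 and ETV5, are induced by ERK signalling, and most of their products act back on it. They were taken from the value table by gene symbol: each had 1 probe set with that symbol alone, so the description covers 10 of 18404 measured genes. None was dim, since no value of any member lay below 5.21, the 30th percentile of gene means, on any of the 18 arrays.

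The study used MCF10A, a widely used non-tumorigenic human line of mammary epithelium, and measured RNA on 18 Affymetrix whole-transcript arrays in 6 groups of 3. In all groups, cells carried a lentiviral hairpin (multiplicity of infection 5, puromycin at 1.5 µg/ml for 4 days, recovery for 7 days or more) and were transiently transfected with cDNA 5 days before lysis, in an estrogen-containing medium. In 2 groups the hairpins targeted the Hippo kinases and the cDNA was the control: shLATS1B (LATS1) and shLATS1+2 (labelled as LATS1 and LATS2). The other 4 groups carried the non-targeting hairpin shNT, with YAP/TAZ plus ESR1 cDNA (called both cDNAs below), YAP/TAZ cDNA, ESR1 cDNA or control cDNA (the control arrays). YAP and TAZ are the transcriptional co-activators that LATS kinases hold back, and ESR1 is estrogen receptor alpha. The labels name no clones and do not say what share of cells took up the transient cDNA. Whether the 3 arrays of a group stand for separate cultures is not stated, and the p-values therefore reflect only how much these samples vary, which may be technical. All values are RNA from whole cell populations, in which fewer expressing cells and less RNA per cell cannot be told apart.

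ERK is the last kinase of the cascade that runs from receptor tyrosine kinases through RAS, RAF and MEK. When ERK is active it induces its own brakes: DUSP phosphatases that remove the activating phosphates from ERK and related kinases, and Sprouty and SPRED proteins that act upstream at the level of RAS and RAF. It also induces ETS factors of the PEA3 family, ETV4 and ETV5, which regulate transcription further. In mammary epithelial lines such as this one, growth depends on epidermal growth factor, which signals through this cascade, and the transcripts are widely used as a readout of it.

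In both LATS knockdowns and with both cDNAs together, DUSP4, DUSP5, DUSP6, SPRED1, SPRED2 and PHLDA1 rose relative to control arrays, by 1.15-fold to 2.09-fold. With ESR1 cDNA alone, DUSP6, SPRED1, PHLDA1, ETV4 and ETV5 fell, by 1.19-fold to 1.49-fold, and SPRY2 rose. With YAP/TAZ cDNA alone, 1 of the 10, ETV5, passed the test, and it fell, where 7% of all genes were called. All of these changes of members passed limma's test at an adjusted p under 0.05, with 3 arrays in each group. The ETV5 call with YAP/TAZ cDNA was lost in 5 of 25 alternative fits. The calls of SPRED2 in the arrays labelled shLATS1+2, DUSP5 with both cDNAs and SPRED1 with ESR1 cDNA were each lost in 4. Fitted on the ESR1 and control arrays alone, only DUSP6 and PHLDA1 were called with ESR1 cDNA. ETV4, ETV5, SPRY2 and SPRY4 were not called higher in either knockdown.

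The stretch just before the transcription start was read for 6 of the 10 genes from RefSeq (GRCh38.p14), 250 bases each and 5′ to 3′ on the strand of the gene. Those of DUSP6, PHLDA1 and SPRED1, which moved together, and of SPRY4, which did not move with them, are shown. Capitals mark CGGAA or its reverse complement TTCCG, the core bound by many ETS factors, a family through which ERK acts on target genes. Where SPRED2 and SPRY2 had several start sites, the outermost was used. The SPRY4 window lies inside the annotated gene, whose 5′ end is at position 142325021, whereas the other windows adjoin the 5′ end of their gene. The windows are chr12:89352502-89352751 (minus strand) for DUSP6, chr12:76031777-76032026 (minus strand) for PHLDA1, chr15:38252586-38252835 (plus strand) for SPRED1 and chr5:142324248-142324497 (minus strand) for SPRY4.
DUSP6: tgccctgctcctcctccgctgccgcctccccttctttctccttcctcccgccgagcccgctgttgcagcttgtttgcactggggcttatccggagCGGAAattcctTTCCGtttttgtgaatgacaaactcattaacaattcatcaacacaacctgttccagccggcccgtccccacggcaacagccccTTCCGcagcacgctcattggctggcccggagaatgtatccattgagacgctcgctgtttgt
PHLDA1: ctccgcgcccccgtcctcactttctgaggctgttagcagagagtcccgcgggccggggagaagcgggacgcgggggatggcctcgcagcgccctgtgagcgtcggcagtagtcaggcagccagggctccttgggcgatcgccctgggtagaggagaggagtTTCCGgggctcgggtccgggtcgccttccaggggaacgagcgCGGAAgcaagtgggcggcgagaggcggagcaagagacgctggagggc
SPRED1: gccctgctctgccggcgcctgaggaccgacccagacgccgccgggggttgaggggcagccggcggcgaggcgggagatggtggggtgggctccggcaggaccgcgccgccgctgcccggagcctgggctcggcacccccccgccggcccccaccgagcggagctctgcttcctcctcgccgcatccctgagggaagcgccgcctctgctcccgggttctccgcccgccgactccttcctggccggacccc
SPRY4: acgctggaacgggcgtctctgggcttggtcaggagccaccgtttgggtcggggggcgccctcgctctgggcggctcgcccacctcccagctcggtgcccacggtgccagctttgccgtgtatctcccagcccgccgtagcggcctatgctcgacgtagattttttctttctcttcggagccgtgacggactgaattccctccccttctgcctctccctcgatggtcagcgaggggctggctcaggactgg

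The DUSP6 window held 3 ETS cores, at 155, 144 and 61 bases before the start, and the PHLDA1 window held 2, at 89 and 47 bases. The SPRY2 window, not printed, also held 2, at 208 and 141 bases, although SPRY2 was not called in either knockdown. SPRED1, SPRED2 and SPRY4 held 0, so genes called higher in the knockdowns and genes not called higher were found on both sides of this count. Of 35116 windows of all genes, 30.3% held the core on either strand. That share counts every listed start site of a gene, not only the outermost. The other listed start sites of SPRED2 and SPRY2 held 0. No window of the 6 genes held GGAATG, the core read by TEAD factors, the partners of YAP and TAZ (11.9% of all windows), TGANTCA of AP-1 (6.57%), TGACGTCA of CREB (1.65%) or the estrogen response element, GGTCA and TGACC with 3 free bases between them (0.0399%), on either strand. The ETS core and GGAATG can share bases, and matches of each motif were counted on their own. A match is a description of the letters in these windows only. DUSP4, DUSP5, ETV4 and ETV5 were not in the promoter table.

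Some facts of the whole series bear on the results. LATS1 was at 7.57 to 7.81 in shLATS1B arrays, at 7.67 to 7.85 in those labelled shLATS1+2 and at 9.27 to 9.43 with both cDNAs, against 8.80 to 8.95 in control arrays. LATS2, at 7.72 to 7.90 in the arrays labelled shLATS1+2 against 7.63 to 7.84 in control arrays, showed no lower level there, and neither YAP1 (10.76 to 10.82, against 10.82 to 10.88) nor the TAZ gene WWTR1 (9.39 to 9.47, against 9.42 to 9.73) was higher in the arrays labelled YAP/TAZ than in control arrays, so these arrays are named by their labels throughout. In the both-cDNA arrays, which carry the YAP/TAZ label too, WWTR1 was at 9.90 to 10.05 and YAP1 at 10.78 to 10.94, and in shLATS1B arrays, which had the control cDNA, WWTR1 was at 9.97 to 10.03. With ESR1 cDNA, limma called YAP1 (log2 change -0.28, adjusted p = 0.0136) and WWTR1 (-0.37, adjusted p = 0.00776) lower than in control arrays. Their interactions of the cDNAs, tested as for the members below, were 0.37 (adjusted p = 0.0211) for YAP1 and 0.92 (adjusted p = 7.40e-05) for WWTR1. ESR1 was at 6.34 to 6.53 in ESR1 arrays and 5.93 to 6.07 with both cDNAs, against 5.37 to 5.65 in control arrays, and also at 6.25 to 6.47 across the 6 knockdown arrays. The first principal component held 47.3% of the variance and divided the arrays into 9 and 9: both knockdowns and both cDNAs (scores 9.83 to 22.7) on one side, and YAP/TAZ, ESR1 and control arrays (-23.0 to -10.3) on the other. No group lay on both sides and the labels give no batch, so in the 3 comparisons with control arrays that cross this division, batch and group cannot be told apart. ESR1 array 1 correlated least with the rest of its own group (mean r 0.993, against 0.995 for each of the other ESR1 arrays), and values without it are given for the members called with ESR1 cDNA or in the interaction, for ETV1 and for the ERK cascade. Of 8 measured epithelial markers, 3 rose and 3 fell in each knockdown, and 4 rose and 3 fell with both cDNAs. Of all genes, 24% were called in shLATS1B arrays, 24.8% in those labelled shLATS1+2 and 29.4% with both cDNAs. KRT14, a basal keratin, was at 7.62 to 8.09 in knockdown arrays, 8.05 to 8.20 with both cDNAs and 9.41 to 9.99 with ESR1, against 10.2 to 10.5 in control arrays, and KRT5 and ITGB4 fell less. The luminal keratins KRT8 and KRT18 and the adhesion molecule EPCAM rose in the same 3 groups as the members: KRT8 2.14-fold in shLATS1B arrays, 1.87-fold in those labelled shLATS1+2 and 1.56-fold with both cDNAs, KRT18 1.55-fold, 1.404-fold and 1.25-fold, and EPCAM 1.60-fold, 1.64-fold and 1.55-fold. CDH1 rose 1.29-fold with both cDNAs. The summed log2 level of all 8, in which these moves offset each other, ranged from 81.4 to 82.7 in knockdown arrays and 82.4 to 83.8 in control arrays. Of 11 measured leukocyte, endothelial and fibroblast markers, PTPRC, CD3E, VWF, CDH5, PDGFRA and LUM were below the 30th percentile on all 18 arrays, the summed log2 level of the 11 ran from 56.9 to 58.0 in knockdown arrays and 56.5 to 57.2 in control arrays, and 1, PECAM1, passed the test in the knockdowns (6.20 to 6.76, against 5.70 to 5.78 in control arrays). The part of these in the results was not tested.

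**Figure D1:**
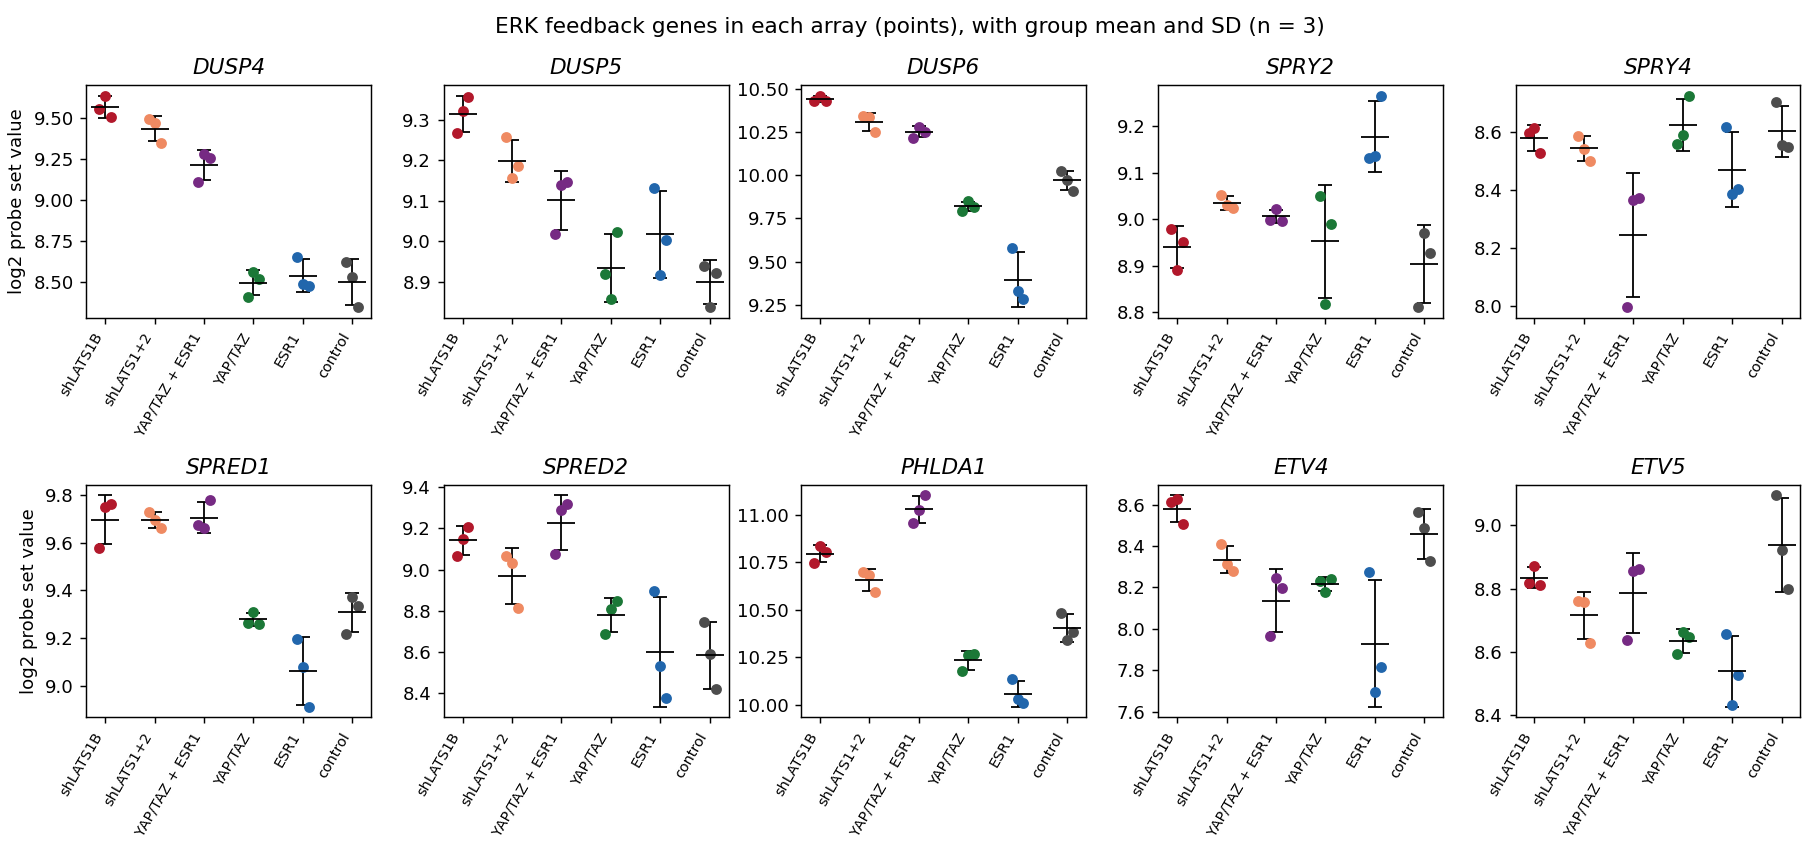
log2 probe set value (vertical axis, a scale of its own for each gene) of the 10 ERK feedback genes in every array, with the group mean and SD (n = 3) for shLATS1B, shLATS1+2, YAP/TAZ + ESR1, YAP/TAZ, ESR1 and control arrays. DUSP4, DUSP6, SPRED1 and PHLDA1 are higher in all 9 arrays of the knockdowns and both cDNAs than in all 9 of the other groups, while DUSP5, SPRED2, SPRY2, SPRY4, ETV4 and ETV5 are not.

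Among the 3 member phosphatases, DUSP4, a nuclear enzyme that dephosphorylates ERK and JNK, changed most in the knockdowns. On the deposited log2 scale it stood at 9.56, 9.64 and 9.51 in shLATS1B arrays, 9.49, 9.47 and 9.35 in those labelled shLATS1+2, and 9.11, 9.28 and 9.26 with both cDNAs. It stood at 8.41, 8.56 and 8.52 in the arrays labelled YAP/TAZ, 8.65, 8.49 and 8.48 in ESR1 arrays, and 8.62, 8.53 and 8.35 in control arrays. The lowest value of the first 3 groups was well above the highest of the last 3, and the YAP/TAZ, ESR1 and control arrays overlapped. In limma's moderated test over all 18404 genes, adjusted by the Benjamini-Hochberg method and called at an adjusted p under 0.05, DUSP4 was 2.09-fold higher in shLATS1B than in control arrays (log2 change 1.07 ± 0.074 SE, n = 3 each, adjusted p = 1.29e-08). It was 1.91-fold higher in the arrays labelled shLATS1+2 (0.93, adjusted p = 6.64e-08) and 1.64-fold higher with both cDNAs (0.72, adjusted p = 1.12e-06). These 3 comparisons share the same control arrays. Against control arrays, neither cDNA alone moved DUSP4 past the test (-0.0026 for YAP/TAZ, with a 95% interval of -0.16 to 0.15, and 0.04 for ESR1, with -0.12 to 0.20).

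DUSP6, the cytoplasmic phosphatase selective for ERK and the gene with 3 ETS cores in the window above, had 10.43, 10.46 and 10.43 in shLATS1B arrays, 10.34, 10.34 and 10.25 in those labelled shLATS1+2 and 10.22, 10.28 and 10.25 with both cDNAs. Its values were 9.79, 9.85 and 9.82 in the arrays labelled YAP/TAZ, 9.58, 9.33 and 9.28 in ESR1 arrays, and 10.03, 9.97 and 9.91 in control arrays. Unlike DUSP4, it separated the lower groups as well: every ESR1 array was below every YAP/TAZ array, and every YAP/TAZ array below every control array. It rose 1.39-fold in shLATS1B arrays (log2 change 0.47, adjusted p = 2.04e-05), 1.27-fold in the arrays labelled shLATS1+2 (0.34, adjusted p = 0.000507) and 1.21-fold with both cDNAs (0.28, adjusted p = 0.00194). With ESR1 cDNA it fell 1.49-fold (log2 change -0.57 ± 0.061 SE, adjusted p = 6.24e-06). The 0.15 lower value in the arrays labelled YAP/TAZ did not pass (adjusted p = 0.20).

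DUSP5, a nuclear phosphatase specific for ERK, moved less. It had 9.27, 9.32 and 9.35 in shLATS1B arrays, with 9.26, 9.15 and 9.18 in the arrays labelled shLATS1+2. Its values were 9.02, 9.14 and 9.15 with both cDNAs, 8.92, 8.86 and 9.02 with YAP/TAZ, 9.131, 8.916 and 9.003 with ESR1, and 8.94, 8.84 and 8.92 in control arrays. The knockdown arrays were all above every array of the YAP/TAZ, ESR1 and control groups, and the both-cDNA arrays overlapped the ESR1 arrays. DUSP5 rose 1.33-fold in shLATS1B arrays (0.41 ± 0.060 SE, adjusted p = 5.89e-05), 1.23-fold in the arrays labelled shLATS1+2 (0.30, adjusted p = 0.00124) and 1.15-fold with both cDNAs (0.20, adjusted p = 0.0171). The last of these did not hold without control array 2 (adjusted p = 0.0813) or without array 2 or 3 of the both-cDNA group (0.069 and 0.0708).

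Among the members, the Sprouty and SPRED genes, whose proteins share a C-terminal domain, did not move as 1 group. SPRED1, which carries the RAS inactivator neurofibromin to the membrane, had 9.58, 9.75 and 9.76 in shLATS1B arrays, 9.73, 9.69 and 9.66 in those labelled shLATS1+2 and 9.67, 9.66 and 9.78 with both cDNAs. It had 9.26, 9.31 and 9.26 in the arrays labelled YAP/TAZ, 9.19, 9.08 and 8.91 in ESR1 arrays and 9.22, 9.37 and 9.33 in control arrays. The 3 upper groups lay on one level, with group means of 9.70, 9.69 and 9.70, and the ESR1 arrays were lowest. SPRED1 rose 1.31-fold in shLATS1B arrays (0.39 ± 0.068 SE, adjusted p = 0.000352), 1.31-fold in the arrays labelled shLATS1+2 (adjusted p = 0.000375) and 1.32-fold with both cDNAs (adjusted p = 0.000218), and fell 1.19-fold with ESR1 cDNA (-0.25, adjusted p = 0.0173).

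SPRED2, which like SPRED1 restrains RAS-to-RAF signalling, had 9.07, 9.15 and 9.21 in shLATS1B arrays, 9.06, 9.03 and 8.81 in those labelled shLATS1+2 and 9.07, 9.29 and 9.32 with both cDNAs. Its values spread more within the other groups: 8.69, 8.81 and 8.85 with YAP/TAZ, 8.90, 8.53 and 8.37 with ESR1, and 8.74, 8.59 and 8.42 in control arrays. All arrays of the first 3 groups were above all control arrays, but array 1 of the ESR1 group and array 3 of the YAP/TAZ group lay above the lowest shLATS1+2 array. SPRED2 rose 1.56-fold with both cDNAs (0.64 ± 0.115 SE, adjusted p = 0.000338), 1.47-fold in shLATS1B arrays (0.56, adjusted p = 0.00152) and 1.31-fold in the arrays labelled shLATS1+2 (0.39, adjusted p = 0.0199). The shLATS1+2 call did not hold without control array 3 (adjusted p = 0.10) or without array 1 or 2 of that knockdown (0.0781 and 0.0694).

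SPRY4 and SPRY2, which inhibit signalling from receptor tyrosine kinases, stood apart from the SPRED genes. SPRY4 had 8.59, 8.61 and 8.53 in shLATS1B arrays, with 8.59, 8.54 and 8.50 in the arrays labelled shLATS1+2, against 8.70, 8.55 and 8.55 in control arrays, and these groups overlapped (log2 changes -0.02 and -0.06). It had 7.997, 8.36 and 8.37 with both cDNAs, all below every control array, 8.56, 8.59 and 8.72 with YAP/TAZ and 8.62, 8.39 and 8.40 with ESR1. It fell 1.28-fold with both cDNAs (-0.36 ± 0.088 SE, adjusted p = 0.00516), beside ETV4 the only member that fell there. SPRY2 varied least: 8.98, 8.89 and 8.95 in shLATS1B arrays, 9.05, 9.03 and 9.02 in those labelled shLATS1+2, 8.999, 9.022 and 8.997 with both cDNAs, 9.05, 8.82 and 8.99 with YAP/TAZ and 8.81, 8.97 and 8.93 in control arrays. In ESR1 arrays it had 9.13, 9.13 and 9.27, above every array of the other 5 groups. This 1.21-fold rise (0.27 ± 0.059 SE, adjusted p = 0.00336) was the only rise called among the 10 genes with ESR1 cDNA, and after quantile normalization DUSP5 was called higher as well (0.17, adjusted p = 0.0366).

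PHLDA1, a pleckstrin homology-like protein whose transcript responds to ERK activity, followed DUSP6 with a difference at the top. It had 10.75, 10.84 and 10.80 in shLATS1B arrays, 10.70, 10.68 and 10.59 in those labelled shLATS1+2 and 10.96, 11.02 and 11.10 with both cDNAs. Its values were 10.18, 10.26 and 10.27 with YAP/TAZ, 10.14, 10.03 and 10.01 with ESR1, and 10.48, 10.34 and 10.38 in control arrays. No 2 of the 6 groups overlapped, and the both-cDNA arrays were the highest. PHLDA1 rose 1.54-fold with both cDNAs (0.62 ± 0.054 SE, adjusted p = 1.27e-07), 1.31-fold in shLATS1B arrays (0.39, adjusted p = 3.55e-05) and 1.19-fold in the arrays labelled shLATS1+2 (0.25, adjusted p = 0.00196), and fell 1.27-fold with ESR1 cDNA (-0.34, adjusted p = 0.000257). With YAP/TAZ cDNA its log2 change was -0.17 (adjusted p = 0.078).

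The PEA3 factors ETV4 and ETV5 were not called higher in any of the 5 comparisons with control arrays. ETV4 had 8.61, 8.63 and 8.51 in shLATS1B arrays, 8.41, 8.32 and 8.28 in those labelled shLATS1+2, 7.96, 8.25 and 8.20 with both cDNAs, 8.23, 8.18 and 8.24 with YAP/TAZ, 8.27, 7.70 and 7.81 with ESR1 and 8.57, 8.49 and 8.33 in control arrays. The shLATS1B arrays overlapped the control arrays, whereas every ESR1 and both-cDNA array was below them. ETV4 fell 1.45-fold with ESR1 cDNA (-0.53 ± 0.113 SE, adjusted p = 0.00312) and 1.25-fold with both cDNAs (-0.32, adjusted p = 0.039). The second call was lost when any of control arrays 1 and 2 or both-cDNA arrays 1 and 3 was left out (adjusted p of 0.128, 0.103, 0.173 and 0.0576).

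ETV5 had 8.82, 8.87 and 8.81 in shLATS1B arrays, 8.76, 8.76 and 8.63 in those labelled shLATS1+2 and 8.64, 8.86 and 8.86 with both cDNAs. With YAP/TAZ it had 8.59, 8.66 and 8.65, and with ESR1 8.66, 8.43 and 8.52, against 9.10, 8.92 and 8.80 in control arrays. Control arrays had the highest group mean, and every YAP/TAZ and ESR1 array was below the lowest of them. ETV5 fell 1.32-fold with ESR1 cDNA (-0.40 ± 0.077 SE, adjusted p = 0.00147) and 1.24-fold with YAP/TAZ cDNA (-0.30, adjusted p = 0.0221), and it was the only member called with YAP/TAZ cDNA. The YAP/TAZ call did not hold without control array 1 or 2 (adjusted p = 0.101 and 0.0602) or any YAP/TAZ array (0.0557 to 0.0913). In the arrays labelled shLATS1+2 its 1.17-fold fall had an adjusted p of 0.0435, and this call was lost in 15 of 25 alternatives, control arrays 1 and 2 (0.215 and 0.0812) and all 3 knockdown arrays (0.0595 to 0.171) among those left out.

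**Figure D2:**
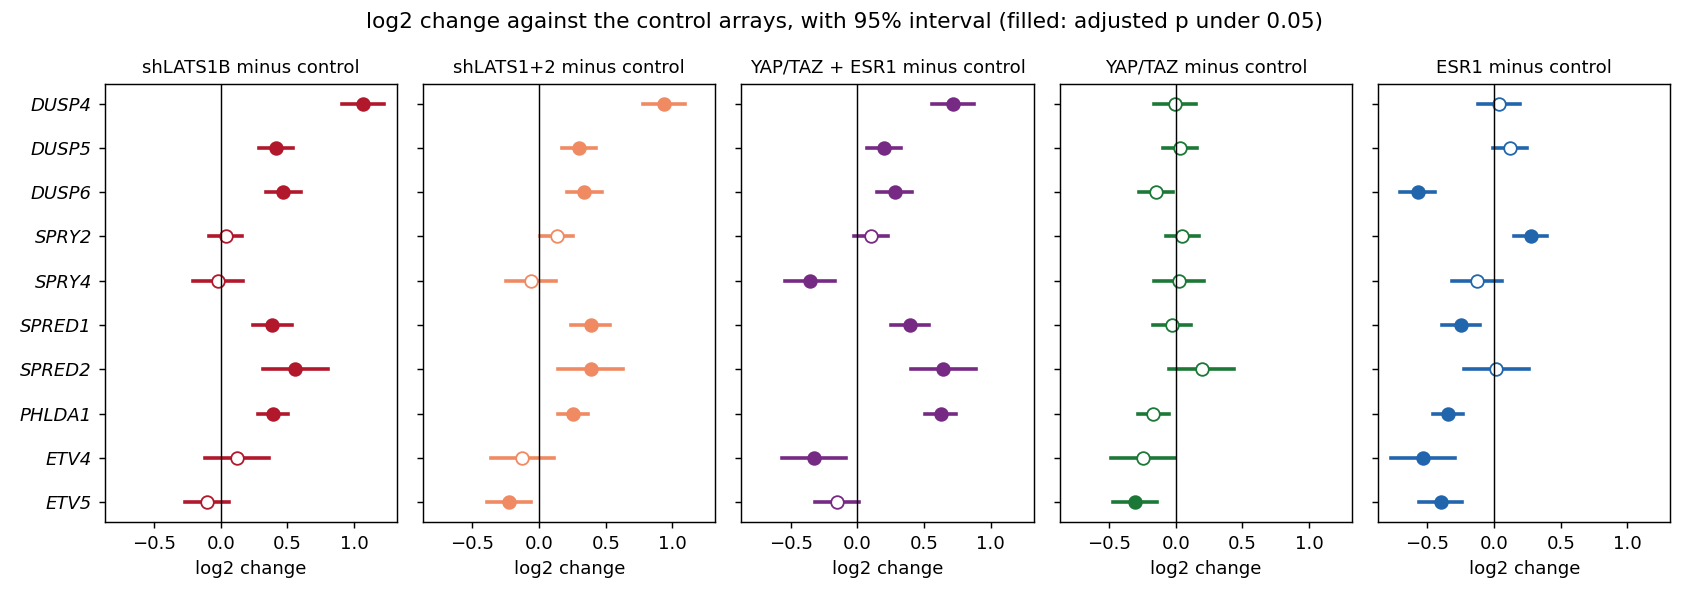
log2 change (horizontal axis) of each of the 10 genes in the 5 groups against the control arrays, with 95% interval, and filled points for an adjusted p under 0.05 in limma. DUSP4, DUSP5, DUSP6, SPRED1, SPRED2 and PHLDA1 lie to the right in both knockdowns and with both cDNAs, and DUSP6, SPRED1, PHLDA1, ETV4 and ETV5 to the left with ESR1 cDNA.

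Counted over the 10 genes, 6 rose and 0 fell in shLATS1B arrays against control arrays, where 24% of all genes were called (12.4% higher, 11.6% lower). The members' median log2 change was 0.39, against -0.0059 for all genes. The groups did not overlap for 6 of 10, against 38.4% of all genes. In the arrays labelled shLATS1+2, 6 rose and 1 fell, with 24.8% of all genes called (11.8% higher, 13% lower) and medians of 0.28 for the members and -0.0080 for all genes, and the groups did not overlap for 8 of 10, against 34.6% of all genes. With both cDNAs, 6 rose and 2 fell, with 29.4% of all genes called (14.7% higher, 14.7% lower) and medians of 0.24 for the members and -0.0043 for all genes, and 9 of 10 did not overlap, against 38.9% of all genes. Each of these 3 comparisons crosses the division of the arrays and uses the same control arrays. None of the 6 shLATS1B calls was lost in any of the 25 alternatives.

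With ESR1 cDNA against control arrays, which lie on the same side of the division, DUSP6, ETV4, ETV5, PHLDA1 and SPRED1 fell and SPRY2 rose. Over all genes 18.9% were called, 7.04% higher and 11.9% lower (37.1% of the called genes were higher, and 21.8% with arrays centred on their medians), the median log2 change was -0.19 for the members and 0.0021 for all genes, and the groups did not overlap for 6 of 10, against 24.3% of all genes. DUSP4, DUSP5, SPRY4 and SPRED2 did not pass, with log2 changes of 0.04, 0.12, -0.13 and 0.02. Fitted on the ESR1 and control arrays alone, 2 members, DUSP6 and PHLDA1, were called, and the adjusted p was 0.0537 for ETV5, 0.0645 for SPRY2, 0.0896 for ETV4 and 0.152 for SPRED1. Nor did the SPRED1 call hold without control array 2 or 3 (adjusted p = 0.0757 and 0.0524) or ESR1 array 3 (0.106). Without ESR1 array 1 the same 6 members were called, with log2 changes of -0.66 for DUSP6, -0.71 for ETV4, -0.46 for ETV5, -0.38 for PHLDA1, -0.31 for SPRED1 and 0.30 for SPRY2.

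With YAP/TAZ cDNA against control arrays, ETV5 alone of the 10 was called, with 7% of all genes called (3.16% higher, 3.84% lower), and 4 of 10 did not overlap, against 22.8% of all genes. The members' median log2 change was -0.016, against -0.00089 for all genes, and 95% intervals reached from -0.09 to 0.16 for DUSP5 and from -0.17 to 0.11 for SPRED1. Without ESR1 array 1, which enters only through the shared spread, DUSP6 (adjusted p = 0.0352) and ETV4 (0.047) were called lower as well. In the direct comparison, ESR1 against YAP/TAZ, DUSP6 fell 1.34-fold (log2 change -0.42, adjusted p = 0.00375) and was the only member called, where 0.603% of all genes were (0.315% higher, 0.288% lower), and the groups did not overlap for 4 of 10, against 12.4% of all genes. Leaving out ESR1 array 1 raised that to 6 members, with SPRED1 (adjusted p = 0.0117), SPRED2 (0.0347), ETV4 (0.00292) and PHLDA1 (0.0194) lower and SPRY2 (0.0189) higher, whereas the fit on these arrays alone called 0 (0.271 for DUSP6).

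The knockdowns were also compared with each other and with both cDNAs, all within the same side of the division. Between the arrays labelled shLATS1+2 and shLATS1B, limma called 0 of the 10 genes (0.321% of all genes were called, 0.141% higher and 0.179% lower), with 3 at an unadjusted p under 0.05 and a lowest adjusted p of 0.385. For 9 of 10 the value was lower in the arrays labelled shLATS1+2, by 0.13 for DUSP4 and DUSP6, 0.14 for PHLDA1 and 0.25 for ETV4, with a 95% interval of -0.49 to -0.01 for ETV4, and the groups did not overlap for 8 of 10, against 25.2% of all genes. With both cDNAs against shLATS1B arrays, PHLDA1 rose (0.23, adjusted p = 0.00839), while DUSP4 (-0.35, adjusted p = 0.00448), ETV4 (-0.45, 0.0152), SPRY4 (-0.33, 0.0207) and DUSP5 (-0.21, 0.0283) fell, where 11.1% of all genes were called (5.81% higher, 5.3% lower) and 7 of 10 members did not overlap, against 30.9% of all genes. Without both-cDNA array 1 this count of 5 dropped to 2, the calls of DUSP5 (0.119), SPRY4 (0.0888) and ETV4 (0.0736) being lost. Each of these also depended on shLATS1B arrays, SPRY4 and ETV4 on arrays 1 and 2 (0.0585 to 0.0787) and DUSP5 on arrays 2 and 3 (0.0851 and 0.107), DUSP5 was lost without both-cDNA array 2 (0.0518), and PHLDA1 was lost without both-cDNA array 3 (0.053). DUSP6 was called lower without ESR1 array 1 (0.00537) or 3 (0.0389).

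With both cDNAs against the arrays labelled shLATS1+2, 19.8% of all genes were called (10.2% higher, 9.62% lower), and the groups did not overlap for 7 of 10 members, against 33.9% of all genes. PHLDA1 rose 1.29-fold (0.37, adjusted p = 0.000156), and SPRY4 (-0.30, adjusted p = 0.0264) and DUSP4 (-0.22, 0.0476) fell. The DUSP4 call was lost in 16 of 25 alternatives, among them each that left out 1 both-cDNA array (0.0644 to 0.171) and those without array 1 or 2 of that knockdown (0.138 and 0.122). The SPRY4 call was lost without both-cDNA array 1 (0.113) or any array of that knockdown (0.054 to 0.0752), and SPRED2 was called higher without ESR1 array 1 (0.0443).

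The design also asks whether the change with YAP/TAZ cDNA, as labelled, differs with and without ESR1 cDNA. The interaction, which is the change of both cDNAs over ESR1 minus the change of YAP/TAZ over control, was positive and called for PHLDA1, DUSP6, DUSP4, SPRED1 and ETV5, and negative and called for 0 of the 10, where 19.1% of all genes were called (11.4% positive, 7.68% negative). Of all called interactions 59.7% were positive, and 72.7% with arrays centred on their medians. The median of the members was 0.50, against 0.00022 for all genes. For PHLDA1 the interaction was 1.14 ± 0.076 (SE, adjusted p = 2.29e-08): both cDNAs were 0.97 above ESR1, while YAP/TAZ was at -0.17 relative to control. For DUSP6 it was 1.00 ± 0.087 (adjusted p = 4.82e-07), with 0.85 over ESR1 and -0.15 relative to control. Both genes were lower with each cDNA alone than in control arrays, for YAP/TAZ without passing the test, and higher with both together.

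DUSP4 (0.68 ± 0.105, adjusted p = 0.000225) and SPRED1 (0.67 ± 0.096, adjusted p = 0.000105) gave smaller interactions. Over all genes, 29.1% were called between both cDNAs and ESR1, and 22.7% between both cDNAs and YAP/TAZ. DUSP4 was near its control level with each cDNA alone, and 0.68 higher with both cDNAs than with ESR1 (adjusted p = 3.81e-06) and 0.72 higher than with YAP/TAZ (adjusted p = 1.97e-06). SPRED1 was 0.64 higher with both cDNAs than with ESR1 (adjusted p = 2.44e-06) and 0.43 higher than with YAP/TAZ (adjusted p = 0.000164). ETV5 (0.55 ± 0.109, adjusted p = 0.00191) differed in form: both cDNAs were at -0.15 relative to control, which did not pass, and the single cDNAs at -0.40 and -0.30. No interaction call of these 5 was lost in any of the 25 alternatives. ETV4 (0.45, adjusted p = 0.0588), SPRED2 (0.43, 0.0763), SPRY2 (-0.22, 0.0763), SPRY4 (-0.25, 0.199) and DUSP5 (0.050, 0.761) did not pass. Without ESR1 array 1 the interactions of PHLDA1, DUSP6, DUSP4, SPRED1 and ETV5 were 1.18, 1.09, 0.74, 0.74 and 0.61. ETV4 (0.62, adjusted p = 0.000449), SPRED2 (0.58, 0.00339) and SPRY2 (-0.24, 0.0466) passed as well without that array, for 8 members in all. Control array 3 (0.043 for ETV4, 0.0436 for SPRED2), both-cDNA array 1 (0.0266 and 0.0415) and YAP/TAZ array 2 (0.0156 for SPRY2) also decided whether these were called. The interaction joins both sides of the division, since the both-cDNA arrays alone of its groups lie on the upper side.

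**Figure D3:**
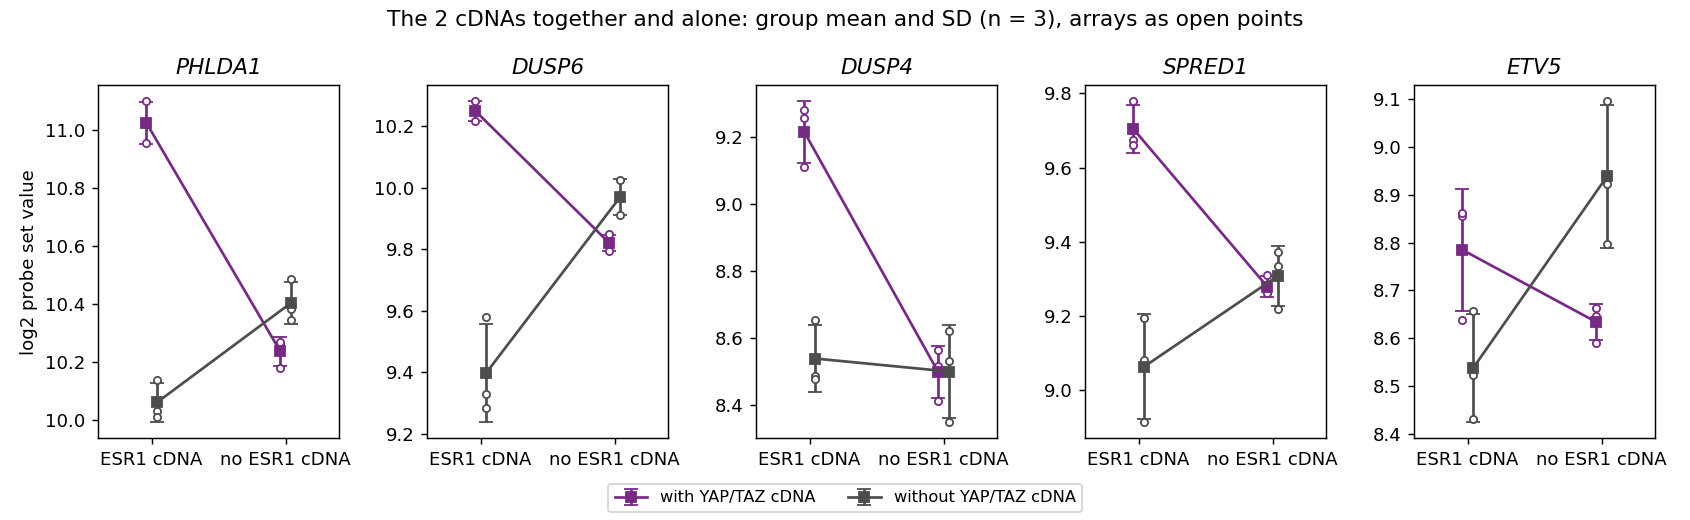
Mean and SD (n = 3) of the log2 probe set value, with arrays as open points, for the 5 genes whose interaction passed: with ESR1 cDNA at the left and without it at the right, and lines for groups with and without YAP/TAZ cDNA. In no panel are the lines parallel, the both-cDNA mean stands above the ESR1 mean in each, and for PHLDA1, DUSP6, SPRED1 and ETV5 the ESR1 mean is the lowest of the 4.

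Relatives of the 10 genes that are not members, 12 of them, moved in both directions. In shLATS1B arrays 4 rose and 3 fell against control arrays, in the arrays labelled shLATS1+2 3 rose and 3 fell, and with both cDNAs 4 rose and 3 fell, with median log2 changes of 0.090, 0.066 and 0.12 in these groups. The shares called over all genes were 24%, 24.8% and 29.4%. DUSP1, a nuclear phosphatase of p38, JNK and ERK, had 10.03, 10.06 and 10.08 in shLATS1B arrays, 9.96, 10.02 and 10.01 in those labelled shLATS1+2 and 10.18, 10.24 and 10.17 with both cDNAs, against 11.42, 11.38 and 11.36 in control arrays. It fell 2.51-fold, 2.62-fold and 2.28-fold in these 3 groups (adjusted p = 5.75e-13, 3.52e-13 and 1.41e-12), opposite in direction to DUSP4, DUSP5 and DUSP6. DUSP10, which acts on JNK and p38, fell 2.30-fold in shLATS1B arrays, 2.37-fold in the arrays labelled shLATS1+2 and 1.81-fold with both cDNAs. DUSP7, a cytoplasmic ERK phosphatase closely related to DUSP6, fell 1.53-fold in shLATS1B arrays, and 1.83-fold in those labelled shLATS1+2. DUSP16, a JNK phosphatase, rose 1.46-fold with both cDNAs. PHLDA2 was at 10.21 to 10.27 in shLATS1B arrays and 9.99 to 10.02 in those labelled shLATS1+2, above all control arrays (9.57 to 9.74). With both cDNAs PHLDA2 was at 9.73 to 9.79 and overlapped the control arrays.

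**Figure D4:**
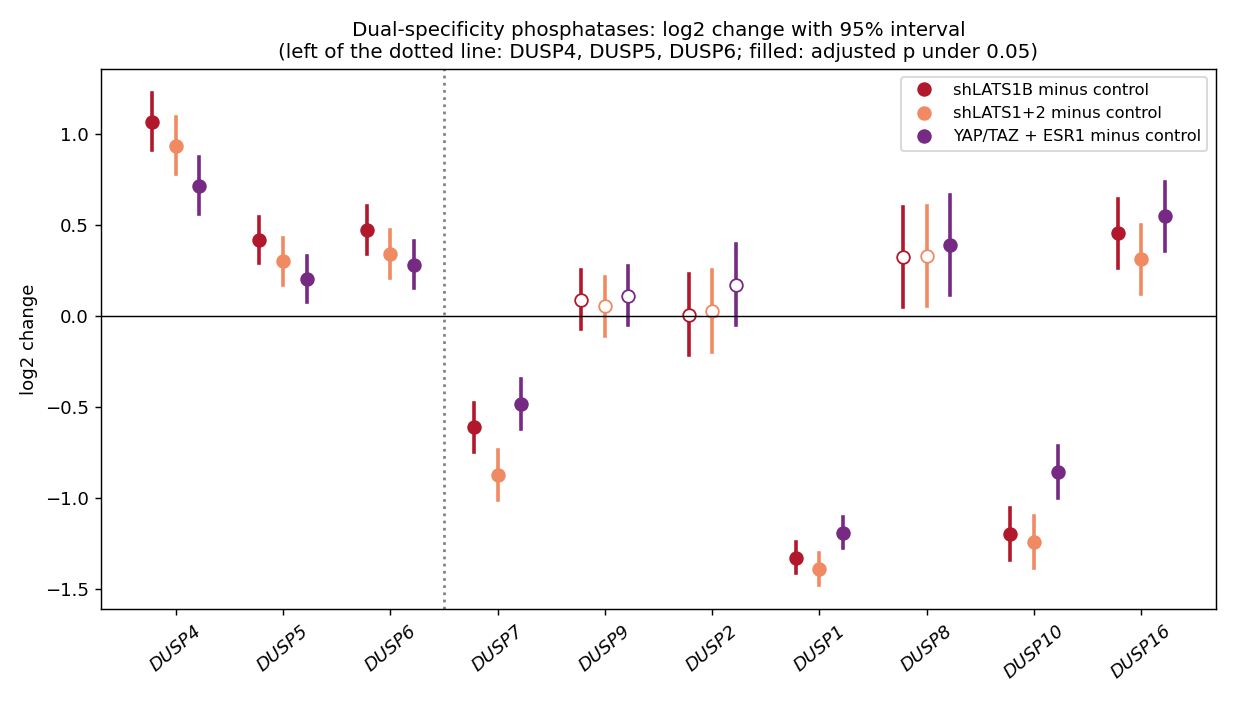
log2 change (vertical axis) with 95% interval of the 3 member phosphatases, left of the dotted line, and the 7 other phosphatases listed, for shLATS1B, shLATS1+2 and YAP/TAZ + ESR1 arrays against control arrays, filled where the adjusted p was under 0.05. The members DUSP4, DUSP5 and DUSP6 are above 0 in all 3 comparisons, as are DUSP2, DUSP8, DUSP9 and DUSP16, while DUSP1, DUSP7 and DUSP10 are below it.

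DUSP1 was the relative with the largest interaction. It stood at 11.81, 11.86 and 11.85 with YAP/TAZ and 11.99, 11.88 and 11.95 with ESR1, all above the control arrays, and rose 1.37-fold (0.46, adjusted p = 1.31e-06) and 1.47-fold (0.56, adjusted p = 6.48e-08) with the single cDNAs. Its interaction was -2.20 (adjusted p = 1.78e-13), the reverse sign of the 5 called members. ETV1, the third PEA3 factor, fell 1.86-fold with ESR1 cDNA (-0.89, adjusted p = 6.71e-05) and 1.33-fold with YAP/TAZ cDNA (-0.42, adjusted p = 0.0486), with an interaction of 1.09 (adjusted p = 0.000258). Its ESR1 arrays were spread widely, at 7.47, 6.76 and 7.13, and its fall was 2.10-fold without array 1 (adjusted p = 6.04e-07). SPRY1, a Sprouty gene outside the member list, had an interaction of 0.58 (adjusted p = 0.000986). Unlike SPRY2 and SPRY4, SPRY1 was above every control array (7.16 to 7.36) in all arrays of both knockdowns and both cDNAs. It was at 7.71 to 7.77 in shLATS1B arrays, 7.53 to 7.69 in those labelled shLATS1+2 and 7.56 to 7.80 with both cDNAs. PHLDA3 rose 1.22-fold with ESR1 cDNA (adjusted p = 0.00178).

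Of the ERK cascade itself, 14 of 20 listed genes were measured. In shLATS1B arrays 3 rose and 2 fell, in the arrays labelled shLATS1+2 2 rose and 3 fell, and with both cDNAs 7 rose and 3 fell, all against control arrays, with median log2 changes of -0.0050, -0.14 and 0.15. Over all genes, 24%, 24.8% and 29.4% were called in these 3 comparisons. MAPK3, which encodes ERK1, had 9.55, 9.63 and 9.64 in shLATS1B arrays, 9.62, 9.56 and 9.42 in those labelled shLATS1+2 and 9.38, 9.73 and 9.66 with both cDNAs, against 8.92, 8.75 and 8.69 in control arrays. These 3 groups did not overlap the control arrays, and MAPK3 rose 1.77-fold, 1.68-fold and 1.75-fold in them (adjusted p = 5.66e-06, 1.58e-05 and 5.23e-06). MAP2K1, which encodes the ERK activator MEK1, fell 1.45-fold in shLATS1B arrays, and 1.59-fold in those labelled shLATS1+2. KSR1, a scaffold of RAF, MEK and ERK, rose 1.46-fold in shLATS1B arrays, and 1.43-fold in those labelled shLATS1+2, although 2 of its 18 values lay below the 30th percentile, and NF1, neurofibromin, rose 1.39-fold with both cDNAs (adjusted p = 0.0186). With both cDNAs the mean of KSR1 was also above that of control arrays, and the mean of MAP2K1 below it. With ESR1 cDNA, where 18.9% of all genes were called, 0 rose and 4 fell. Among the 4 were the ERK-activated kinases RPS6KA3 (1.43-fold) and RPS6KA1 (1.33-fold) and MAP2K1 (1.28-fold). Without ESR1 array 1, 7 fell, GRB2, SOS2 and NF1 in addition, and the falls were 1.60-fold for RPS6KA3, 1.42-fold for RPS6KA1 and 1.39-fold for MAP2K1. With YAP/TAZ cDNA limma called 0 of the 14, with 1 at an unadjusted p under 0.05, where 7% of all genes were called.

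Other transcripts that ERK induces, all 12 of them measured, were mixed as well: 6 rose and 3 fell in shLATS1B arrays, 5 rose and 5 fell in the arrays labelled shLATS1+2, and 6 rose and 3 fell with both cDNAs, with median log2 changes of 0.20, 0.046 and 0.12. Against control arrays, 24%, 24.8% and 29.4% of all genes were called in these groups. HBEGF, a ligand of the epidermal growth factor receptor, had 10.45, 10.38 and 10.37 in shLATS1B arrays, 10.27, 10.22 and 10.25 in those labelled shLATS1+2 and 11.13, 11.13 and 11.17 with both cDNAs. It had 9.68, 9.72 and 9.85 with YAP/TAZ and 9.55, 9.64 and 9.68 with ESR1, against 9.30, 9.18 and 9.28 in control arrays. All 5 groups were above the control arrays without overlap, and HBEGF rose 2.21-fold, 1.99-fold, 3.71-fold, 1.41-fold and 1.29-fold in them, in that order (adjusted p from 6.75e-14 to 8.11e-05). IER3, an early response gene, rose 1.82-fold in shLATS1B arrays, 1.79-fold in the arrays labelled shLATS1+2 and 1.65-fold with both cDNAs. LIF, a cytokine, rose 1.60-fold in shLATS1B arrays and 1.71-fold with both cDNAs. EGR1, an immediate early transcription factor, fell 1.75-fold in the arrays labelled shLATS1+2 (adjusted p = 6.16e-08). With ESR1 cDNA 3 of the 12 rose and 3 fell, where 18.9% of all genes were called. LIF rose 1.49-fold and EPHA2, a receptor tyrosine kinase, 1.33-fold, while FOS fell 1.32-fold. With YAP/TAZ cDNA 3 rose and 1 fell, where 7% of all genes were called. LIF (1.37-fold) and EPHA2 (1.24-fold) rose there beside HBEGF.

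The 10 genes fell into unlike patterns over the 18 arrays, where all correlations include the differences between groups and share each array's quality and are given as description. Among DUSP4, DUSP5, DUSP6, SPRED1, SPRED2 and PHLDA1, the 15 pairwise Pearson correlations ranged from 0.62 to 0.94. SPRY2 correlated with the other 9 at -0.67 to 0.045, and ETV4 with ETV5 at 0.80. Over deviations from group means alone, the 15 pairs ranged from 0.24 to 0.91. The 18 pairs of these 6 genes with SPRY4, ETV4 and ETV5 ranged from -0.35 to 0.70 over all arrays and from 0.12 to 0.92 over deviations from group means, so that within groups these 3 correlated with the 6 over a range close to that among the 6 themselves. SPRY2 ranged from -0.57 to 0.046 with the other 9 over the deviations. Of all genes, the one most like each member over the 18 arrays was TNFAIP2 for DUSP4 (r = 0.986), CTNNB1 for DUSP6 (0.985), ST6GALNAC2 for PHLDA1 (0.981), NEK9 for SPRED2 (0.980), DENND4C for SPRED1 (0.974), RGL2 for ETV5 (0.964), MYB for ETV4 (0.955), MYEF2 for DUSP5 (0.942), ENPP1 for SPRY4 (0.905) and CLDN7 for SPRY2 (0.860).

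Ordered by group mean, DUSP4, DUSP5 and DUSP6 shared the same 3 upper places, shLATS1B over shLATS1+2 over both cDNAs, of which the neighbours DUSP4 shLATS1+2 and both cDNAs differed in the test (adjusted p = 0.0476) and the others did not. DUSP6 went on with control, YAP/TAZ and ESR1 arrays, and its steps between both cDNAs and control and between YAP/TAZ and ESR1 passed (adjusted p = 0.00194 and 0.00375). SPRED1, SPRED2 and PHLDA1 had both cDNAs at the top. For PHLDA1 that place was separated from shLATS1B by 0.23 (adjusted p = 0.00839), while for SPRED1 it was separated by 0.0090 and for SPRED2 by 0.086, which did not pass. In ETV4, ETV5, SPRY2 and SPRY4, no 2 neighbouring groups in the order differed in the test.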

How the data were processed

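RNA of 18 MCF10A samples was measured on Affymetrix arrays. The authors deposited log2 values of 32321 probe sets, a column per array, made with the package affy per the submitters' processing notes. Their background correction, normalization and build were not given in the sources used here. Medians of the arrays were 5.494 to 5.619. Of the probe sets, 19158 had 1 gene symbol in the platform annotation, 1388 several and 11775 none. The 18404 genes were each read from their probe set of highest mean. Levels are not compared between probe sets.

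All 18 arrays entered 1 limma model (version 3.58.1, R 4.3.3; lmFit, contrasts.fit and eBayes) with a mean per group, no covariate and 12 residual degrees of freedom. The 10 comparisons were tested two-sided and adjusted by the Benjamini-Hochberg method over all genes. The fit was tested on simulated data. The members and the lists of relatives, cascade genes, ERK-induced transcripts and markers were chosen with earlier results of these data known. Every member is named, and of each list up to 3 called genes with the largest change per main comparison, with all listed phosphatases in a plot. Levels of the relatives PHLDA2 and SPRY1 are given in addition. Alternatives were median centring, quantile normalization, a filter on dim genes, all probe sets with 1 symbol, only the arrays compared, trended and robust moderation, a replicate block and leaving out each array. Listed genes with no row in the annotation (6 of the cascade, 4 epithelial and 1 other marker) were not analysed here. The number of arrays limits the precision.

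Replicate numbers recur in every group. Of 45 pairs of arrays with the same number in different groups, 13 had deviations correlated above 0.1 (range -0.69 to 0.63, median -0.083). Of 90 pairs with different numbers in different groups, 39 did (median 0.063), so the numbers were not taken as pairs.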

Additional observations from a re-analysis of the deposited data

Results flagged for a closer look

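For 5 genes the difference between arrays labelled with and without YAP/TAZ cDNA was not the same with and without ESR1 cDNA, tested as the interaction in limma: PHLDA1 (1.14 on the log2 scale, adjusted p = 2.29e-08), DUSP6 (1.00, adjusted p = 4.82e-07), DUSP4 (0.68, adjusted p = 0.000225), SPRED1 (0.67, adjusted p = 0.000105) and ETV5 (0.55, adjusted p = 0.00191), with 3 arrays in each of the 4 groups. The both-cDNA arrays lie on the other side of the division of the arrays from the remaining 3 groups, and its part in these values was not tested. Neither YAP1 nor WWTR1 was higher in the arrays labelled YAP/TAZ than in control arrays, so that these values compare labelled groups.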

How the results depend on the processing

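The 6 calls in shLATS1B arrays and the 5 interaction calls kept their direction and side of the threshold in all 25 alternatives. Counts of members called moved as follows in the other comparisons. Fitted only on the arrays compared, the count was 2 for ESR1 against control, 1 for both cDNAs against shLATS1+2 and 0 for ESR1 against YAP/TAZ, where fewer arrays estimate the spread. With arrays centred on their medians it was 3 for both cDNAs against shLATS1B and 1 for both cDNAs against shLATS1+2, and the cause was not tested. Against control arrays, leaving out 1 array gave 5 to 7 for shLATS1+2, 6 to 8 for both cDNAs and 5 to 6 for ESR1. The alternatives that kept all arrays gave 6 to 7, 6 to 8 and 2 to 7 for these, in that order. Leaving out 1 array gave 0 to 3 for YAP/TAZ against control, 2 to 6 for both cDNAs against shLATS1B and 1 to 4 for both cDNAs against shLATS1+2. It gave 1 to 6 for ESR1 against YAP/TAZ and 5 to 8 members for the interaction. Without ESR1 array 1 and both-cDNA array 1, an alternative chosen after seeing the data (as was leaving out ESR1 array 1 for the listed genes), 4 members were called for YAP/TAZ against control and 7 for ESR1 against YAP/TAZ.

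With the replicate block, 1 of the 100 values of the members changed its call (ETV5 in the arrays labelled shLATS1+2, adjusted p = 0.0592), and 5414 called genes for both cDNAs against control became 5244. Of 18 arrays, 4 were closest to arrays of their own number.

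No called value changed its sign. Uncalled values near 0 that did were, with quantile normalization, DUSP4 with YAP/TAZ (0.019). With median centring they were DUSP4 (-0.026) and SPRED2 (-0.049) with ESR1, SPRY2 with both cDNAs against shLATS1+2 (0.0091) and DUSP4 with ESR1 against YAP/TAZ (-0.0026). Without the pair of arrays named above they were DUSP4 (-0.018) and SPRED2 (-0.13) with ESR1, ETV5 with both cDNAs against shLATS1B (0.024) and DUSP4 with ESR1 against YAP/TAZ (-0.016). Leaving out 1 array gave ranges across 0 in shLATS1B arrays for SPRY2 (-0.0092 to 0.071) and SPRY4 (-0.050 to 0.028), with YAP/TAZ for DUSP4 (-0.078 to 0.058), DUSP5 (-0.012 to 0.071), SPRY2 (-0.00030 to 0.12), SPRY4 (-0.029 to 0.073) and SPRED1 (-0.075 to 0.0024), and with ESR1 for DUSP4 (-0.037 to 0.099) and SPRED2 (-0.13 to 0.13). The same held for SPRED1 between the knockdowns (-0.061 to 0.030), with both cDNAs against shLATS1B (-0.050 to 0.041) and against shLATS1+2 (-0.026 to 0.033), for ETV5 with both cDNAs against shLATS1B (-0.087 to 0.024) and for DUSP4 with ESR1 against YAP/TAZ (-0.016 to 0.074).

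Median centring moved the share of higher genes among all calls to 21.8%, against 37.1% as deposited, for ESR1 against control, and to 72.7%, against 59.7%, for the interaction, with shifts of the median of all genes of at most 0.081.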
